A study of Mus musculus with 2 samples.

Results

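The genes described here are regulators through which a cell leaves the division cycle, measured in cortical fiber cells and in epithelial cells of the mouse eye lens. They are 10 genes in all, chosen by symbol: the cyclin-dependent kinase (CDK) inhibitors Cdkn1a, Cdkn1b, Cdkn1c, Cdkn2c and Cdkn2d, the retinoblastoma family members Rb1 and Rbl2, the antiproliferative genes Btg1 and Btg2, and the growth arrest gene Gas1. Of these, 8 had a probe, 1 each, among the 13709 genes with a symbol and a value on both arrays. Cdkn1b and Cdkn2d had no probe with their symbol or Entrez identifier in the annotation and were not analysed here. The rule uses gene symbols and no measured value.

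The study compared cortical fiber cells with epithelial cells in lenses from mice aged 13 days, and each was measured on 1 array. Lenses of 5 mice were separated with forceps into cortical fibers and the capsule with the epithelium that adheres to it. The sources used here do not give strain, sex or genotype, nor whether the lenses were pooled, and no treatment is named for either sample. The sample description of both arrays speaks of liver from wild-type embryos, whereas titles, source names and design text speak of the lens, and the samples were grouped by source name. Poly(A) RNA was copied into biotin-labelled RNA and hybridized to a 1-colour CodeLink bioarray, on which each spot's brightness (intensity) reports the level of 1 transcript. Because the epithelium was taken with the capsule, it can hold neighbouring tissue, and because each sample is bulk RNA, fewer cells of a type and less RNA per cell cannot be told apart.

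In the lens, the epithelium is a single layer that holds the dividing cells. At its equator cells leave the cycle for good, elongate and become fibers. CDK inhibitors bind cyclin-dependent kinases and block them. The kinases otherwise phosphorylate the retinoblastoma proteins, which in their unphosphorylated form hold E2F transcription factors and so keep the genes of DNA replication silent. In mice, loss of Rb1 in the lens lets fiber cells re-enter the cycle, and Cdkn1b and Cdkn1c act together in the exit of fiber cells. Much of the control of these proteins lies after transcription, in phosphorylation and degradation, which an RNA measurement does not see.

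Intensities are given in the deposited scaling, in which the median of all probes is close to 1 on each array (0.998 for both). Values up to 0.499, or 0.5 of the median, were treated as a floor. Differences are log2 of the cortex intensity minus log2 of the epithelium intensity. A gene counted as higher or lower in cortex if the arrays differed 3-fold or more and the brighter value reached the median of its array. No value has a replicate, so no difference below has a test or an error of its own, and the spread between samples is unknown. The only spread that could be measured was between different probes of 1 gene, with a pooled SD of 1.10 on the log2 scale over 558 genes. It compares different probes and is not an error of repeated measurement. Each regulator had 1 probe, so it was not checked by another.

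The labelled cell types were met by their markers. Of 12 fiber markers, 10 were higher in cortex and none in epithelium, and of 9 epithelial markers 7 were higher in epithelium and none in cortex. All 12 fiber markers also lay above the floor in epithelium, with summed intensities of 22285 in cortex and 3446 in epithelium. Whether the epithelium sample held fiber material was not tested. All 7 macrophage markers lay at the floor on both arrays, and no blood vessel marker of 7 was counted. Of 10 liver markers, 3 lay at the floor on both arrays, 6 had values up to 2.26, and Ahsg, which encodes fetuin-A, stood at 185 in cortex and 16.9 in epithelium. No erythroid marker of 7 was counted, with 1.79 as the highest value.

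None of the 8 measured regulators was higher in cortex, the tissue of cells that have left the cycle. Btg1 (12.4-fold) and Gas1 (13.6-fold, or at least 8.18-fold with a floor at the median of the array) were lower in cortex, and the other 6 did not pass the limit. Of those 6, Rbl2 has only a bound and Cdkn1a lay at the floor on both arrays. The count of 2 of 8 lower in cortex stands beside 8.17% of all genes, and the count of 0 of 8 higher in cortex beside 9.41%, and with 8 genes each one carries a large part of such a share. The balance over all genes depended on the scaling: of all genes counted, cortex held 53.5% as deposited and 17.6% when differences were centred on ribosomal protein genes. At a 2-fold limit Btg2 and Rbl2 were also counted as lower in cortex, 4 of 8 beside 15.3% of all genes, and 0 of 8 were higher beside 16.4%. The median log2 difference of the 8 was -0.61, against 0.00 for all genes. Over the 6 above the floor on both arrays it was -0.69, against 0.03 for the 8351 such genes.

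**Figure D1:**
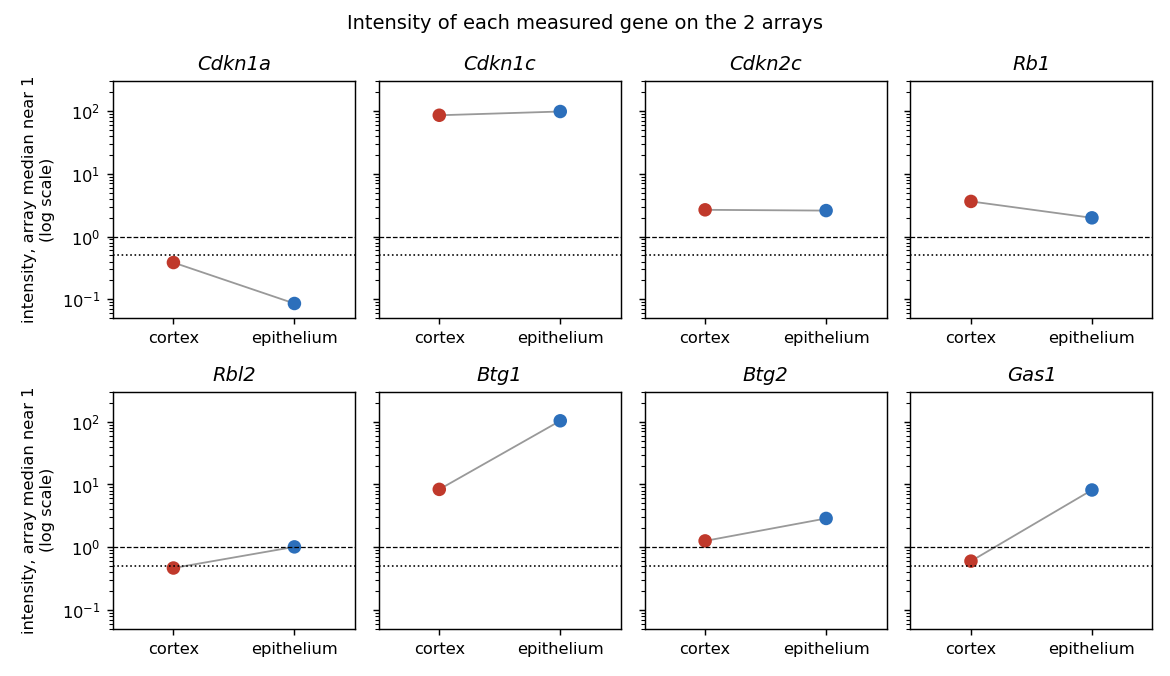
Intensity of the 8 measured regulators on the cortex array (red, left) and the epithelium array (blue, right), 1 value each, on a log axis. The dashed line is the array median (0.998) and the dotted line the floor (0.499). Btg1 and Gas1 show the steep slopes, Cdkn1c and Cdkn2c are nearly level, and both Cdkn1a points lie under the floor.

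Among the CDK inhibitors, no gene was counted in either direction. Cdkn1c encodes p57, an inhibitor of the Cip/Kip family that blocks several cyclin-CDK complexes, and in the mouse it is expressed from the maternal allele. Cdkn1c (Entrez gene 12577) measured 85.5 in cortex and 98.1 in epithelium, for a log2 difference of -0.20. The gene was far above the median on both arrays, and its 1.15-fold difference is small beside the spread between probes. Its size depended on the scaling, since the log2 difference was -1.06 after quantile normalization and -0.998 after a loess correction on brightness, and -1.12 after centring on ribosomal protein genes, all still under 3-fold.

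Cdkn2c encodes p18, an INK4 inhibitor that acts on CDK4 and CDK6. Cdkn2c (Entrez gene 12580) measured 2.66 in cortex and 2.59 in epithelium, for a log2 difference of 0.04. The samples were level to within 1.03-fold. Cdkn1a encodes p21, a Cip/Kip inhibitor and a well-known target of p53. Cdkn1a (Entrez gene 12575) stood at 0.385 in cortex and 0.0858 in epithelium. Both values lay under the floor, so no fold is given and no difference was detectable.

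Both measured members of the retinoblastoma family stayed under the limit, with values in opposite directions. Rb1 encodes the retinoblastoma protein. Rb1 (Entrez gene 19645) measured 3.63 in cortex and 1.99 in epithelium, for a log2 difference of 0.87 or 1.83-fold. Of the 10346 genes that exceeded the floor on 1 array or both, at least 24.7% were brighter in cortex by as much or more, with bounds taken at their bound. Rbl2 encodes p130, the family member that forms the DREAM repressor complex in resting cells. Rbl2 (Entrez gene 19651) stood at 0.467 in cortex and 1.01 in epithelium. The cortex value lay under the floor, so Rbl2 was at least 2.03-fold brighter in epithelium, and with a floor at the median of the array the bound was 1.02-fold. After centring on ribosomal protein genes Rb1 was level (-0.05) and Rbl2 (-1.94) was counted as lower in cortex.

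The lower levels in cortex were those of Btg1 and Gas1. Btg1 belongs to the BTG/TOB family, whose proteins bind the CCR4-NOT deadenylase and restrain proliferation. Btg1 (Entrez gene 12226) measured 8.35 in cortex and 103 in epithelium, for a log2 difference of -3.63 or 12.4-fold. Both values lay well above the floor. Of the same 10346 genes, at least 1.07% were lower in cortex by as much or more.

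Btg2, its close relative and a p53 target, differed in the same direction but under the limit. Btg2 (Entrez gene 12227) measured 1.26 in cortex and 2.88 in epithelium, for a log2 difference of -1.19 or 2.28-fold. Of the 10346 genes, at least 16.5% were lower in cortex by as much or more. The log2 difference of Btg1 minus that of Btg2 was -2.44, a comparison without a test. Btg2 (-2.11) was counted as lower in cortex after centring on ribosomal protein genes.

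Gas1 encodes a membrane protein that was found through its expression in growth-arrested fibroblasts and that also serves as a co-receptor for hedgehog ligands. Gas1 (Entrez gene 14451) measured 0.601 in cortex and 8.16 in epithelium, for a log2 difference of -3.76 or 13.6-fold. The cortex value lay just above the floor and under the median, so the size of the fold depends on the floor. With the floor at the array median Gas1 was at least 8.18-fold lower in cortex.

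**Figure D2:**
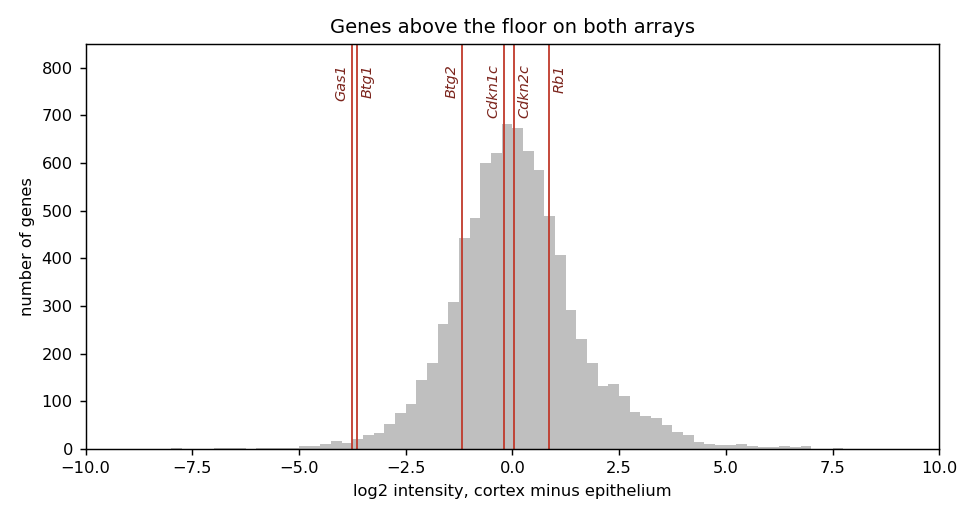
Number of genes (vertical axis) by log2 difference, cortex minus epithelium (horizontal axis), for the 8351 genes above the floor on both. Genes at the floor on 1 array, some of them far lower or higher in cortex, are not drawn. Red lines mark the 6 regulators measured there: Gas1 (-3.76) and Btg1 (-3.63) lie in the left tail, and the other 4 lie between -1.19 (Btg2) and 0.87 (Rb1).

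Some markers of tissue next to the lens were lower in cortex along with Btg1 and Gas1. Of 8 ciliary body markers, 4 were lower in cortex (50%) and 1 was higher (12.5%), beside 8.17% and 9.41% of all genes. Summed intensities were 34.9 in cortex and 212 in epithelium, of which Ptgds gave 7.54 and 123. Opn3 was the marker higher in cortex (3.44, against 1.04 in epithelium), and Zic2 was nearly level (18.7 in cortex, 20.9 in epithelium). Zic1 and Wfdc1 lay at the floor on both arrays. Mfap2, a microfibril gene, stood at 3.47 in cortex and 57.9 in epithelium. Of 7 pigment cell markers, 2 were lower in cortex and 1 was higher, with summed intensities of 5.09 in cortex and 14.9 in epithelium, and the tyrosinase gene Tyr lay at the floor on both arrays. Their part in the levels of Btg1 and Gas1 was not tested.

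The promoters of Btg1 and Gas1, the regulators that differed, and of Btg2, the relative of Btg1 that did not pass, are shown to let their start regions be compared. Each is a RefSeq window of GRCm38.p6 from 250 bases before to 50 bases after the gene start, written on the gene's strand. Capitals mark, in either orientation, the GC box (GGGCGG), the CCAAT box (CCAAT) and the TATA box (TATAAA). The Btg1 window lies at chr10:96616751-96617050 on the plus strand, that of Btg2 at chr1:134079106-134079405 on the minus strand and that of Gas1 at chr13:60177486-60177785 on the minus strand.
Btg1: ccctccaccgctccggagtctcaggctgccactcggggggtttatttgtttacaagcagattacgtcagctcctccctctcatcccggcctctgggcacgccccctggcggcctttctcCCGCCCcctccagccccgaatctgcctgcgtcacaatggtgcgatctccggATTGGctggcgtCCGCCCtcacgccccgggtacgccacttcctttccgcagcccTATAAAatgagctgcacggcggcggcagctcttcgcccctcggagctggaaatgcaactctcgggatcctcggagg
Btg2: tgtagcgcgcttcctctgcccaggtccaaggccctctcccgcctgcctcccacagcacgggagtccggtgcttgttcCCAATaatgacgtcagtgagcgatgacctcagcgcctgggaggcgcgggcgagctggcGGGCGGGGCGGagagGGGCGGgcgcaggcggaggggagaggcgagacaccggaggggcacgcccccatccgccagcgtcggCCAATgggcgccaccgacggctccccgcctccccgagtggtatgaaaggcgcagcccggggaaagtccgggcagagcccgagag
Gas1: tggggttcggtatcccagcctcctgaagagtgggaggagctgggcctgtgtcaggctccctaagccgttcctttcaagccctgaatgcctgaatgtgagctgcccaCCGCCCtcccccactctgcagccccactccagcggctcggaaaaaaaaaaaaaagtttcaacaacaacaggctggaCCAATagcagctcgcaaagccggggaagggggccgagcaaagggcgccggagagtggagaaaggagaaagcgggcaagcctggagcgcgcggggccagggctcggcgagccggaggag

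Btg1 held a TATA box whose first base lay 26 bases before the start, with 2 GC boxes and 1 CCAAT box upstream of it. Btg2 held 3 GC boxes, 2 of which overlap by 1 base, and 2 CCAAT boxes, and Gas1 held 1 of each. A TATA box was found in 13.6% of the 32851 windows of all genes, and in 1 of the 10 windows of the regulators, that of Btg1.

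The table held windows for 8 of the 10 regulators, without Cdkn1c and Rb1, and with 2 each for Cdkn1a and Cdkn2c. A GC box was found in 8 of these 10 windows, at least 1 for each of the 8 genes, against 35.7% of all windows. A CCAAT box was found in 6 of 10, against 37.4% of all windows. The windows of Btg1, Btg2 and Gas1 were 64.7%, 72.0% and 62.3% G or C, against a median of 52.7% for all windows. The E2F motif (TTTCCCGC, TTTCGCGC, TTTGCCGC or TTTGGCGC, either orientation) was found in none of the 10 windows, against 2.26% of all windows. The CHR element (TTTGAA), through which DREAM binds its targets, was found in 1, that of Rbl2, against 17.9% of all windows. The E-box (CACGTG) was found in 1, the second window of Cdkn2c, against 7.15%. These counts describe letters in the windows, and binding was not measured. Apart from those GC boxes of Btg2, no matches in these windows overlap.

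Of the other inhibitors of the cycle, those that passed were higher in cortex, unlike Btg1 and Gas1. Of 10 measured, 5 were higher in cortex (50%) and none was lower, beside 9.41% and 8.17% of all genes. The median log2 difference was 1.38. Centred on ribosomal protein genes, 4 were higher and 2 were lower, beside 4.30% and 20.1% of all genes. Gadd45b, Gadd45a and Gadd45g encode stress-induced proteins that can inhibit the mitotic kinase CDK1. Gadd45g stood at 15.5 in cortex and 2.30 in epithelium, with log2 differences of 2.75 for Gadd45g, 4.22 for Gadd45a and 4.61 for Gadd45b. Cdkn2a, whose locus encodes both an INK4 inhibitor and the p53 activator Arf, measured 6.63 in cortex and 0.594 in epithelium, for a log2 difference of 3.48. With a floor at the median of the array, Cdkn2a was at least 6.65-fold higher in cortex. Tob2, a relative of Btg1 named after its value was seen, stood at 6.88 in cortex and 1.95 in epithelium (3.53-fold), while its second probe lay at the floor on both arrays. Tob2 did not pass after centring on ribosomal protein genes or with the mean over probes. Its relatives Tob1 (12.4 in cortex, 6.48 in epithelium) and Btg3 (4.40 in cortex, 7.51 in epithelium) stayed under the limit. So did Cdkn3, a phosphatase that acts on CDKs (at least 2.79-fold brighter in epithelium), and Gas2 (at least 1.61-fold brighter there), while Btg4 lay at the floor on both arrays. The measured BTG/TOB genes thus had no common direction.

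The G1 cyclins and kinases, which the CDK inhibitors oppose, were listed together with the S phase cyclin gene Ccna2. Those counted were lower in cortex. Of 12 measured, 3 were lower (25%) and none was higher, beside 8.17% and 9.41% of all genes. The median log2 difference was -1.10. After centring on ribosomal protein genes 7 were lower, a setting in which 20.1% of all genes were lower. Cdk4, the partner of the D cyclins, measured 7.54 in cortex and 37.4 in epithelium, for a log2 difference of -2.31. Ccnd2, a D cyclin, stood at 10.1 in cortex and 53.1 in epithelium. Ccna2, the cyclin of S phase, stood at 0.231 in cortex, under the floor, and at 4.58 in epithelium, at least 9.17-fold lower in cortex, or 4.59-fold with a floor at the median of the array. The phosphatase gene Cdc25a stood at 1.98 in cortex and 5.79 in epithelium, under the limit, and was counted as lower after centring on ribosomal protein genes. Ccnd1, Ccne2 and Cdk6 lay at the floor on both arrays.

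The partners of the retinoblastoma family had no common direction. Of 11 E2F and DREAM genes, 1 was higher in cortex and 1 was lower, with a median log2 difference of 0.02. Each count is 9.09%, near the shares of all genes. Lin9, a DREAM subunit, measured 0.582 in cortex and 3.45 in epithelium, for a log2 difference of -2.57, or at least 3.46-fold with a floor at the median of the array. Rbbp4, a histone-binding subunit of DREAM and other complexes, stood at 239 in cortex and 64.5 in epithelium, 3.70-fold, and did not pass in any of the other scalings. E2f4, the repressor E2F that pairs with Rbl2, stood at 17.7 in cortex and 9.37 in epithelium, under the limit. Tfdp2, a partner of E2F proteins, stood at 0.462 in cortex, under the floor, and at 1.43 in epithelium, a bound of 2.86-fold. It was counted as lower in cortex after centring on ribosomal protein genes and without a floor.

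Genes of the S phase and mitosis program, the targets of E2F and DREAM, were lower in cortex in 16 of 25 cases (64.0%). None was higher. Over all genes, 8.17% were lower and 9.41% were higher. The median log2 difference was -2.47. Cdk1, the mitotic kinase, stood at 0.252 in cortex, under the floor, and at 15.0 in epithelium. Mki67, the proliferation antigen, measured 0.542 in cortex and 16.8 in epithelium, for a log2 difference of -4.95 that likewise depends on the floor, and Ccnb2 and Cks2 were at least 16.9-fold and 14.7-fold lower in cortex. With a floor at the median of the array these bounds were 8.44-fold for Ccnb2 and 7.34-fold for Cks2.

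**Figure D3:**
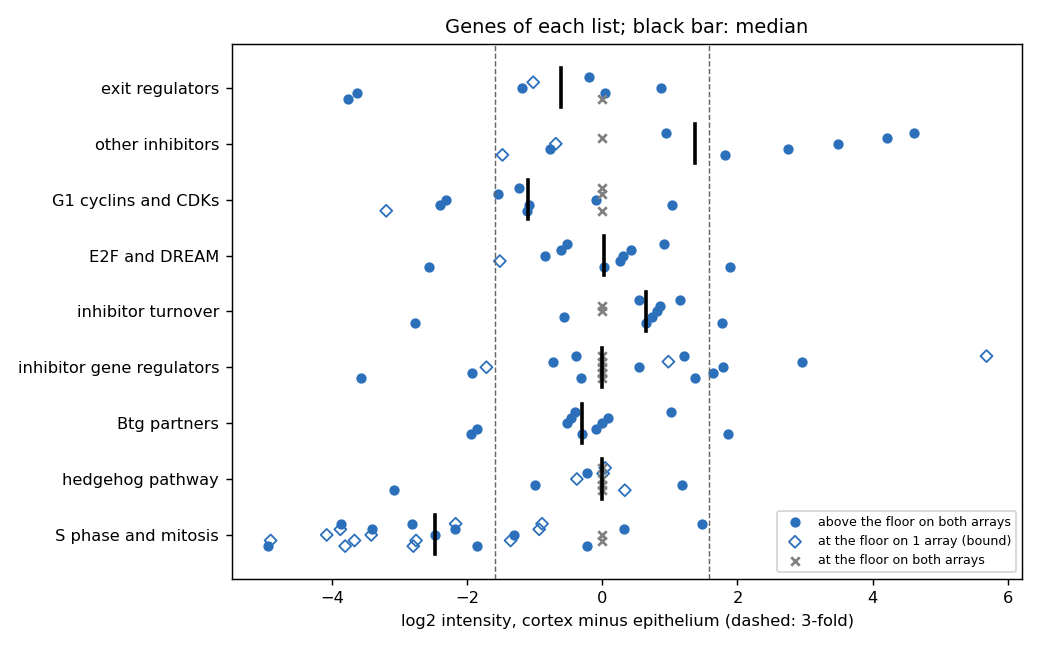
Log2 difference, cortex minus epithelium (horizontal axis), of each measured gene of the exit regulators and the 8 pathway lists (rows). Filled points are above the floor on both arrays, open diamonds are bounds, crosses are at the floor on both arrays, black bars are medians and dashed lines mark 3-fold. The medians run from -2.47 (S phase and mitosis) to 1.38 (other inhibitors), with -0.61 for the exit regulators.

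A list of transcription factors that act on inhibitor genes also holds the p53 regulators Mdm2 and Mdm4. Of its 20 measured genes, 4 were higher in cortex (20.0%) and 3 were lower (15.0%), beside 9.41% and 8.17% of all genes. The median log2 difference was 0.00, with 6 genes at the floor on both arrays and given 0. Over the 11 above the floor on both it was 0.55. Prox1, which is needed in mice for the expression of Cdkn1b and Cdkn1c in fiber cells, measured 15.8 in cortex and 2.05 in epithelium, for a log2 difference of 2.95. Its second probe differed in the same direction, by 1.72. Mxd1, an antagonist of Myc, stood at 25.7 in cortex and 0.225 in epithelium, under the floor, at least 51.5-fold higher in cortex, or at least 25.7-fold with a floor at the median of the array. Foxo1, a forkhead factor that can activate Cdkn1b, measured 1.15 in cortex and 13.6 in epithelium, for a log2 difference of -3.57. Mxi1, another Myc antagonist, measured 0.971 in cortex and 3.68 in epithelium, for a log2 difference of -1.92. The other 3 counted genes, named after their values were seen, were Mdm2 and Mxd4, higher in cortex, and Klf4, lower in cortex. Mdm2 and Mxd4 did not pass after centring on ribosomal protein genes, and Mdm2 and Klf4 were no longer counted with the higher floor at the array median. Myc lay at the floor on both arrays, as did Foxo3 and Foxo4.

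In the list of genes that degrade CDK inhibitors, 1 of 11 was higher in cortex and 1 was lower, with a median log2 difference of 0.65. Each count is 9.09%, near the shares of all genes. Cks1b, a cofactor of the ligase that marks Cdkn1b protein for degradation, measured 2.64 in cortex and 18.1 in epithelium, for a log2 difference of -2.78. Rnf123, a subunit of another ligase of Cdkn1b protein, stood at 23.9 in cortex and 6.98 in epithelium, 3.42-fold, and passed neither after centring on ribosomal protein genes nor after quantile normalization. Skp1 (2.23-fold) and Ubac1 (1.82-fold) were brighter in cortex, under the limit.

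The partners of Btg proteins listed here are subunits of the CCR4-NOT deadenylase together with Pabpc1 and Prmt1. Of 11 genes, 1 was higher in cortex (9.09%) and 2 were lower (18.2%), beside 9.41% and 8.17% of all genes. The median log2 difference was -0.30. Cnot7 and Cnot8, the catalytic subunits that Btg1 and Btg2 contact, were brighter in epithelium by 1.32-fold and 1.43-fold, under the limit. Prmt1, an arginine methyltransferase that also binds Btg proteins, measured 7.28 in cortex and 26.4 in epithelium, for a log2 difference of -1.86. Cnot6, the only deadenylase subunit of the list that was counted, stood at 0.698 in cortex and 2.67 in epithelium, and was no longer counted with a floor at the median of the array. Cnot6l (2.03-fold brighter in cortex) was under the limit, with a second probe in the opposite direction (-0.91). Pabpc1, the poly(A)-binding protein, stood at 438 in cortex and 121 in epithelium, 3.61-fold, and did not pass in any of the other scalings.

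Of the hedgehog pathway, in which Gas1 is a co-receptor, 1 of 12 genes (8.33%) was lower in cortex and none was higher. The share lower is near the 8.17% of all genes. The median log2 difference was 0.00, with 4 genes at the floor on both arrays and given 0. Over the 4 above the floor on both it was -0.61. Smo, the signal transducer, measured 0.740 in cortex and 6.26 in epithelium, for a log2 difference of -3.08, or at least 6.28-fold with a floor at the median of the array. The other co-receptor genes split under the limit, with Cdon at 3.03 in cortex and 6.06 in epithelium (counted as lower in cortex after centring on ribosomal protein genes) and Boc at 17.0 in cortex and 7.52 in epithelium. The ligand genes Shh and Dhh lay at the floor on both arrays and Ihh (0.514 in cortex) next to it. The receptor gene Ptch1 stood at 0.381 in cortex, under the floor, and at 0.648 in epithelium, a bound of 1.30-fold.

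**Figure D4:**
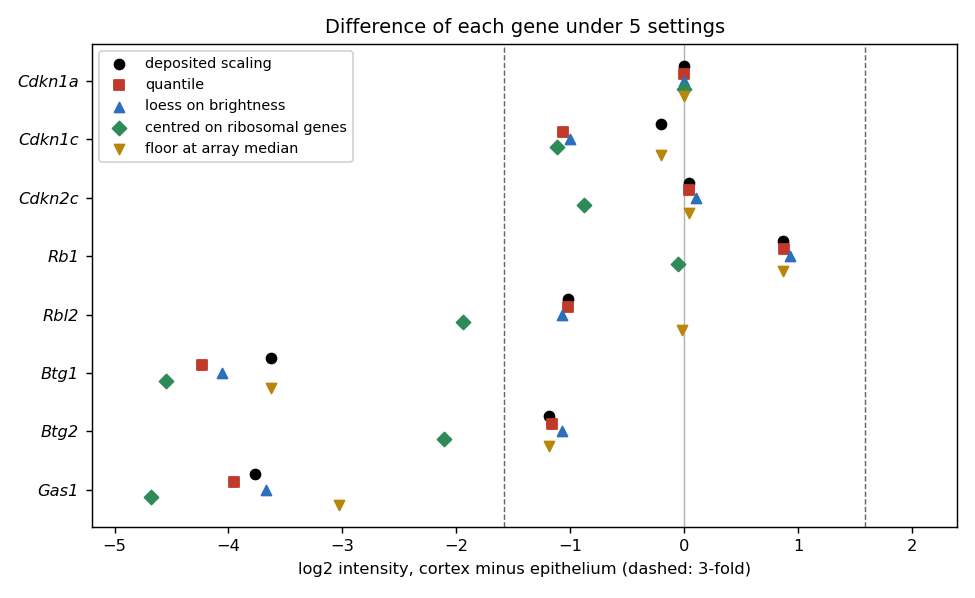
Log2 difference, cortex minus epithelium (horizontal axis), of the 8 regulators (rows) under the deposited scaling, 3 other scalings and a higher floor. Dashed lines mark 3-fold. Btg1 and Gas1 lie beyond the left line in each, Btg2 and Rbl2 cross it after centring on ribosomal protein genes, and no gene crosses the right line.

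The calls of Btg1 and Gas1 held in all 7 settings in which the difference was computed. The log2 difference of Btg1 ran from -4.55 to -3.63 and that of Gas1 from -4.68 to -3.03. Centring on ribosomal protein genes assumes that these were level, and it shifted the median of the 8351 genes above the floor on both to -0.89, against 0.03 in the deposited values. Rb1 (-0.05) and Cdkn2c (-0.88) lie below 0 under this centring, which shifts every gene that exceeded the floor on 1 array or both by the same amount.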

How the data were processed

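Per the labels, poly(A) RNA of 2 lens samples was hybridized to 1-colour CodeLink arrays, which were scanned and read with the CodeLink software. The authors' deposited intensities (19819 probes) are linear, reach 5411, fall below 0 for 161 cortex and 74 epithelium probes, and have medians close to 1, as the values show. The sources used here do not state the background and scaling steps. Probes missing on either array (100) were left out. Platform annotation gave 15120 probes 1 gene symbol, 38 several and 4661 none, and 15064 of the first matched RefSeq (GRCm38.p6) by Entrez identifier.

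Values were raised to a floor of 0.5 of each array's median and converted to log2. The probe with the highest mean log2 value stood for its gene, and genes at the floor on both arrays were given a difference of 0. A single array per sample allowed no test. On simulated data of 13709 genes with the pooled SD between probes as noise, the rule found 67.0% of 4-fold and 100% of 16-fold changes and wrongly counted 1254 genes. With the median SD (0.59) it found 77.0% and 100% and wrongly counted 75. Changes were planted only in genes with a mean intensity well above the array median. Cdkn1a, Cdkn2c, Rb1, Rbl2, Btg2 and Gas1 were dimmer than these genes, so the shares found do not cover them.

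Named pathway genes are up to 4 per list with the largest difference, and others are marked or are given to complete a family. Members and lists were chosen with earlier results of these data known. Python 3.11.15 was used, with numpy 2.4.6, pandas 2.3.3, statsmodels 0.14.6 (loess, span 0.3) and matplotlib 3.10.9.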

Additional observations from a re-analysis of the deposited data

How the results depend on the processing

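Of the regulators, none was counted as higher in cortex under any of the 9 alternatives run. The number lower in cortex was 2 in each except 2. It was 4 after centring on ribosomal protein genes, beside 20.1% of all genes, and 4 at a 2-fold limit, beside 15.3%. In both, Btg2 and Rbl2 joined Btg1 and Gas1. Without a floor the log2 difference of Cdkn1a was 2.17, but both its intensities lay under the median, so it was not counted. Over all genes, 1290 were higher and 1120 lower in cortex. After centring on ribosomal protein genes these counts were 590 and 2758, at a 2-fold limit 2243 and 2101, and at a 5-fold limit 698 and 477, as follows from moving the centre or the limit. Quantile normalization, loess, the other floors and the mean over probes kept each count within 1.5 times. Leaving out the brightness requirement changed no count, because a gene 3-fold above the floor is always above the median. The median of the regulators ran from -1.53 (centred on ribosomal protein genes) to -0.11 (floor at the array median). Alternatives for single pathway genes were added after the data were seen. No paired analysis was possible because each group holds 1 array. The number of arrays and the signal over background of dim probes (Cdkn1a, Rbl2, Gas1 in cortex) limit the precision.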

Other observations

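Several genes of the cell cycle lists had more than 1 probe, and these showed how far probes of 1 gene can differ. Lin37, a DREAM subunit, stood at 6.82 in cortex and 5.07 in epithelium on its brighter probe (log2 difference 0.43), and at 1.39 in cortex and 5.21 in epithelium on the other (-1.91). Cdk7, the kinase that activates other CDKs, was brighter in epithelium on both probes, with log2 differences of -1.23 and -2.80. The second passed 3-fold, but its cortex value (0.508) lay just above the floor, so the size of its difference depends on the floor. The transcription factor gene Maf was brighter in cortex on each of its 3 probes, with log2 differences of 1.37, 1.89 and a bound of 1.70, although the brightest probe stayed under the limit. Cnot7 was nearly level on both probes (-0.40 and -0.34). Among the kinases of the G1 list, Cdk2, the partner of E and A cyclins, was brighter in cortex (5.55 in cortex, 2.73 in epithelium, 2.04-fold, under the limit), in the opposite direction to Cdk4. These genes were chosen after their values were seen.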
